A study of Homo sapiens with 43 samples.

Results

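Long intergenic noncoding RNAs (lincRNAs) are transcripts that code for no protein and whose genes lie between protein-coding genes. Of the 58347 gene rows in the RNA-seq counts of HEL cells that express wild-type or mutant U2AF1, 1398 were rows of this kind. A row was taken when GENCODE release 29 gives its gene type as lincRNA and at least 10 reads were counted in 2 or more libraries, and 12 rows that passed were left out by name (NEAT1, MALAT1, NORAD, FTX, JPX and 7 SNHG genes). The RNA table held 7358 lincRNA rows, of which 3228 had no read in any library. At the edge of the rule, the second-highest count was 10 in 67 rows, just inside, and 9 in 64 rows, just outside.

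HEL is a human erythroleukemia line. The cells were stably transduced with U2AF1 that was wild type (WT) or carried the S34F or the Q157R change, and doxycycline at 1 µg/ml for 48 hours turned on the exogenous protein. All cells kept their own U2AF1. RNA-seq after removal of ribosomal RNA covered 6 groups in 10 libraries: WT uninduced (2) and induced (2), S34F uninduced (1) and induced (2), and Q157R uninduced (1) and induced (2). The S34F and Q157R groups without doxycycline are 1 library each. Replicates are labelled biological, but no label ties them to separate cultures, so part of the spread behind each p-value may be technical.

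LincRNAs are transcribed by RNA polymerase II, mostly from weak promoters, and many are spliced poorly, stay in the nucleus and turn over fast. Some start close to the promoter of a coding gene and run the other way, some are precursors of microRNAs, and some lie just beyond the 3′ end of a coding gene, where a polymerase that has not stopped would continue into them. U2AF1 and U2AF2 are the subunits of the factor that binds the end of an intron, the 3′ splice site, and recruits the U2 snRNP. S34F and Q157R are the recurrent U2AF1 changes of myeloid malignancies, and each shifts which 3′ splice sites are used.

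The pair LINC01729 and LINC00654 shows the arrangement of interest: both lie on the minus strand of chromosome 20, 34.4 kb and 39.8 kb beyond the end of GPCPD1, with 3.26 kb between them, and both were among the 8 rows called higher in induced S34F cells. LINC01729 reached 10 reads only in the induced S34F libraries, so it passed the count rule through the group where it is high. The 2 promoters are printed because both rows rose. Each runs from 250 bases before to 50 bases after the RefSeq start on GRCh38.p14, minus strand, at chr20:5504547-5504846 for LINC00654 and chr20:5509953-5510252 for LINC01729. Capitals mark AGATAA, the motif of the erythroid factor GATA1, searched on both strands.
LINC00654: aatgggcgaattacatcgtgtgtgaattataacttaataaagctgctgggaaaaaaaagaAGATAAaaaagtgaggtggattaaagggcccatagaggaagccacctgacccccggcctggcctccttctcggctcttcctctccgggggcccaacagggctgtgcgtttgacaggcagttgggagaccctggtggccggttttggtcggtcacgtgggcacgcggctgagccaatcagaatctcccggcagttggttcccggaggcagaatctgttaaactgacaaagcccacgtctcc
LINC01729: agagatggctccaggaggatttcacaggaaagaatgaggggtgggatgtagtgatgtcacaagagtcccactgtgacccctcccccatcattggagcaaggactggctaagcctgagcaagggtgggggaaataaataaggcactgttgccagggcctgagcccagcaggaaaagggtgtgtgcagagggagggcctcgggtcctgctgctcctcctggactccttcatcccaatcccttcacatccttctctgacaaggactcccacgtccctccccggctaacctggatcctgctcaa
The LINC00654 promoter holds 1 copy of the motif, and the LINC01729 promoter holds none. The motif was found in 10.5% of the 27305 promoters of the RefSeq table, in 36 of the 282 lincRNA rows that the table covers (12.8%), and in 5 of the 35 among them that were called higher in S34F with the replicate block described below (14.3%). TATAAA, searched the same way, was in 12% of all promoters, 13.8% of the lincRNA promoters and 17.1% of those 35.

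The last 60 bases of the longest GENCODE transcript are given for 4 of the rows called higher in S34F, because the end of a transcript carries the signal for cleavage and polyadenylation. Capitals mark AATAAA or ATTAAA, the usual forms of that signal, on the transcript strand (GRCh38). The stretches lie at chr20:5496067-5496126 (LINC00654), chr20:5507875-5507934 (LINC01729), chr9:72871728-72871787 (LINC01474) and chr14:49991555-49991614 (LINC01588).
LINC00654: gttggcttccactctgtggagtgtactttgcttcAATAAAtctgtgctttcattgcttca
LINC01729: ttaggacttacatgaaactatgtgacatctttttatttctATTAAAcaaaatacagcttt
LINC01474: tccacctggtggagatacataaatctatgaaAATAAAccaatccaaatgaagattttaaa
LINC01588: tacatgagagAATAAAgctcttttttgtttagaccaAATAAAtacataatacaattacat
The 4 stretches hold such a signal and are shown as examples, since not every called row ends with one. It was present in the last 60 bases of 796 of the 1398 rows (56.9%), in 119 of the 198 called higher in S34F with the replicate block (60.1%) and in 674 of the 1189 other rows tested (56.7%).

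The RNA-seq libraries held 22392303 to 40370092 gene counts. Erythroid markers were present in each library (GATA1 at 146 to 224 CPM, where CPM is the read count relative to library size, scaled by TMM), as were the megakaryocytic ITGA2B and ITGB3. Of the lymphoid markers CD3E, CD3D and MS4A1, the highest value was 0.106 CPM, and EPCAM, DCN and COL1A1 did not exceed 1.18 CPM, whereas KRT8 reached 73.8 CPM. U2AF1 stood at 11 to 22.1 CPM over the libraries with overlap between induced and uninduced cells. Its reads are shared with the near-identical copy U2AF1L5, so this level does not check the transgene.

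Most lincRNA rows were scarce. The median row had a mean of 0.874 CPM, with quartiles of 0.399 and 2.44 CPM, 761 rows were below 1 CPM and 105 reached 10 CPM. Gene models were spliced in 943 rows and had a single exon in 455. The most abundant, AC079466.1 on chromosome 19, averaged 1107 CPM, or 248.5 CPM per kb of exon, and the second, AL713998.1 on chromosome 6, averaged 252 CPM, or 156.8 CPM per kb of exon. The other 8 of the 10 most abundant, from PVT1 at 118 CPM to EBLN3P at 53.3 CPM, included PCAT14, MIR4435-2HG, LINC00665 and EPB41L4A-AS1, and these 10 rows together took 26.7% to 40.5% of all lincRNA reads in a library.

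Induced S34F libraries had the highest share of reads in lincRNA rows. The share of gene counts was 0.796% and 0.808% in the 2 induced S34F libraries, 0.548% and 0.567% in induced WT, and 0.552% and 0.643% in induced Q157R. In uninduced cells it was 0.542% and 0.517% (WT), 0.574% (S34F) and 0.551% (Q157R). Both induced S34F libraries lay above the other 8. With 2 libraries a group, a two-sided exact permutation test of a share cannot go below p = 0.333, so the comparison was left to the fit across genes. Reads outside every annotated gene moved with this share: they were 33.7% and 33.5% of all reads in induced S34F, 22.7% and 22.7% in induced WT, 23.2% and 27% in induced Q157R, and 19% to 20.6% in uninduced libraries. The part of those reads in the lincRNA values was not tested.

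**Figure D1:**
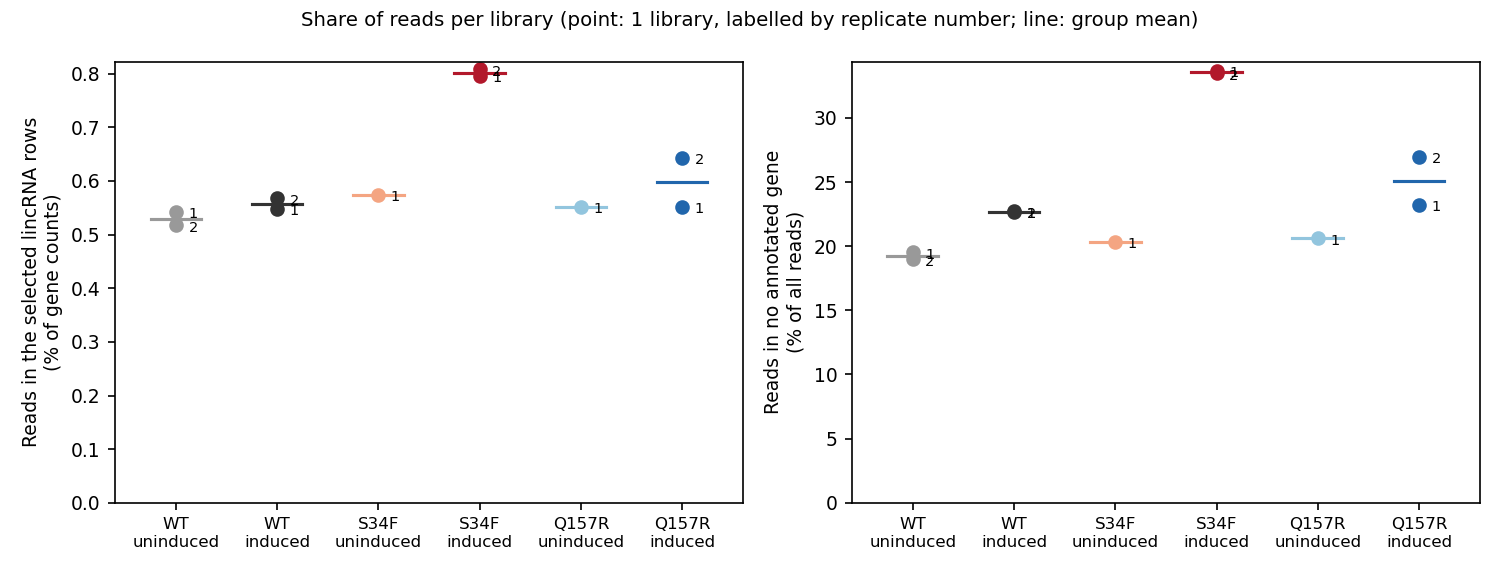
Share of gene counts in the 1398 lincRNA rows (left, %) and share of all reads in no annotated gene (right, %) for each RNA-seq library; points are libraries labelled by replicate number, lines are group means. The 2 induced S34F libraries (0.796% and 0.808%) lie above the other 8 on the left, and at 33.7% and 33.5% also on the right.

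By distance, 74 rows, called overlapping, began at or before the end of the nearest upstream expressed coding gene on the same strand. Such a row may cross that end or lie wholly inside the gene. Of the other rows, 196 began within 10 kb beyond the end, 238 at 10 to 50 kb, 333 at 50 to 200 kb, and 557 at 200 kb or more or with no such gene. A gene counted as expressed at a mean of at least 1 CPM, which 11936 coding genes reached. The median distance of the rows that did not overlap was 132 kb. The share of gene counts in the rows at 10 to 50 kb was 0.107% and 0.111% in induced S34F, against 0.0711% and 0.0817% in induced WT, and in the rows at 200 kb or more it was 0.444% and 0.438% against 0.302% and 0.292%. In all 5 classes both induced S34F libraries lay above both induced WT libraries.

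LincRNA rows as a group stood higher in induced S34F than in induced WT cells. Of the 1398 rows, 1387 passed the filter on low counts and were tested among 21300 genes with edgeR's quasi-likelihood test and Benjamini-Hochberg adjustment at 0.05. The median log2 fold change of the tested rows was 0.40, and 71.1% were above 0, against a median of 0 over all genes tested and of -0.16 over 13602 coding genes. Antisense genes (0.38) and sense-intronic transcripts (0.70) also had positive medians, so this shift was not particular to lincRNA rows. Scaling to all reads of a library in place of TMM gave 0.37. Between libraries of the same replicate number the median, on log2(CPM + 0.5), was 0.29 for replicate 1 and 0.21 for replicate 2.

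Single calls were few without a replicate term and many with it. In the fit without a block 8 rows were called higher and 0 lower, where 0.681% of all genes were called higher and 0.991% lower, so the 8 rows (0.577%) lay near the background. The replicate numbers were taken to pair the libraries because same-numbered libraries deviated together in these counts. No label states such a pairing. With the number as a block 198 rows were called higher (14.3% of those tested, background 9.56%) and 30 lower (2.16%, background 12.9%). All 8 remained called with the block. DESeq2 called 43 rows higher (3.08%) and 8 lower (0.572%), where 1.41% and 2.64% of the 38670 genes with any read were called. Only 20341 rows of any type pass the count rule of the lincRNA rows. The DESeq2 backgrounds here and below include the others, so they are not like for like. The calls without the block did not outlast leaving out any 1 of the 4 induced S34F and WT libraries (S34F replicate 1 or 2, WT replicate 1 or 2). This held for lincRNA rows and over all genes. Such a fit has 1 library in a group, and the median log2 fold change of the tested lincRNA rows was then 0.37 to 0.49. A fit of the 2 groups alone called 0 rows, and 0 of all 19099 genes it tested.

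LINC01474, on chromosome 9 at 72871728 to 72874109 (minus strand), 26.6 kb beyond the end of the retinaldehyde dehydrogenase gene ALDH1A1, had the largest log2 fold change of the 8. Its level was 4.18 and 3.84 CPM in induced S34F, 0.0748 and 0.184 CPM in induced WT, and 0.558 and 0.389 CPM in induced Q157R. In uninduced cells it was 0.129 and 0.101 CPM (WT), 0.143 CPM (S34F) and 0.146 CPM (Q157R). Both induced S34F libraries stood above all others. The log2 fold change against induced WT was 4.99 ± 0.49 (SE), with an edgeR adjusted p of 0.0342, and 5.01 ± 0.47 with the block (adjusted p = 0.000235). Over the 11 alternatives the adjusted p ran from 9.22e-14 to 0.359. ALDH1A1 itself was at 228 and 139 CPM in induced S34F and 119 and 94.7 CPM in induced WT.

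LINC00654 had 9.93 and 6.54 CPM in induced S34F, 0.972 and 0.368 CPM in induced WT, 0.669 and 0.247 CPM in induced Q157R and 0.437 to 0.839 CPM in uninduced cells. Its log2 fold change against induced WT was 3.58 ± 0.57 (SE; edgeR adjusted p = 0.0443, with the block 0.000395). LINC01729, the row upstream of it, was at 1.18 and 0.756 CPM in induced S34F and at 0.0498 and 0.0368 CPM in induced WT, and had no read in uninduced WT. With 53 reads in induced S34F and 3 in induced WT, the ratio was 21.3, with an exact 95% interval of 6.9 to 107 that covers counting error only, and its edgeR adjusted p was 0.0448. The gene upstream of both, GPCPD1, which splits glycerophosphocholine, was at 53.8 and 57.9 CPM in induced S34F and 34.9 and 62.5 CPM in induced WT, so its libraries overlapped where those of the 2 lincRNA rows did not.

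The other 5 rows called higher were AC239803.1, LINC01588, AL022322.1, AL118508.1 and LINC01762. AC239803.1 was at 8.12 and 7.89 CPM in induced S34F against 1.32 and 1.18 CPM in induced WT (log2 fold change 2.67 ± 0.36, edgeR adjusted p = 0.0432). It lies on chromosome 1 in a stretch of duplicated sequence, so reads from near-identical copies make its count uncertain. LINC01588, 16 kb beyond VCPKMT, a methyltransferase, was at 7.69 and 4.99 CPM against 1.07 and 1.77 CPM (2.17 ± 0.37), and AL022322.1, 14.4 kb beyond PICK1, a PDZ-domain protein, was at 3.04 and 3.06 CPM against 0.723 and 0.773 CPM (2.02 ± 0.36). LINC01762, 35.7 kb beyond the adhesion molecule gene CD58, was at 1.5 and 1.05 CPM against 0.299 and 0.221 CPM (2.25 ± 0.43). The edgeR adjusted p-values of the 5 were 0.0432 to 0.0474, and as they are given because they were called, the separation of their libraries is a description.

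AL118508.1 differed from the rest in position. Its nearest upstream expressed gene, XRN2, lies 1798 kb away, and the row rose to 1.14 and 1.41 CPM from 0.149 and 0.258 CPM in induced WT (2.67 ± 0.48, edgeR adjusted p = 0.0448). XRN2 encodes the nuclear exonuclease that degrades RNA behind the cleavage site when transcription ends, and it fell: 62 and 53.9 CPM in induced S34F, 123 and 129 CPM in induced WT, 163 and 156 CPM in induced Q157R (log2 fold change against WT -1.12 ± 0.16, edgeR adjusted p = 0.0432). Its part in the lincRNA levels was not tested.

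**Figure D2:**
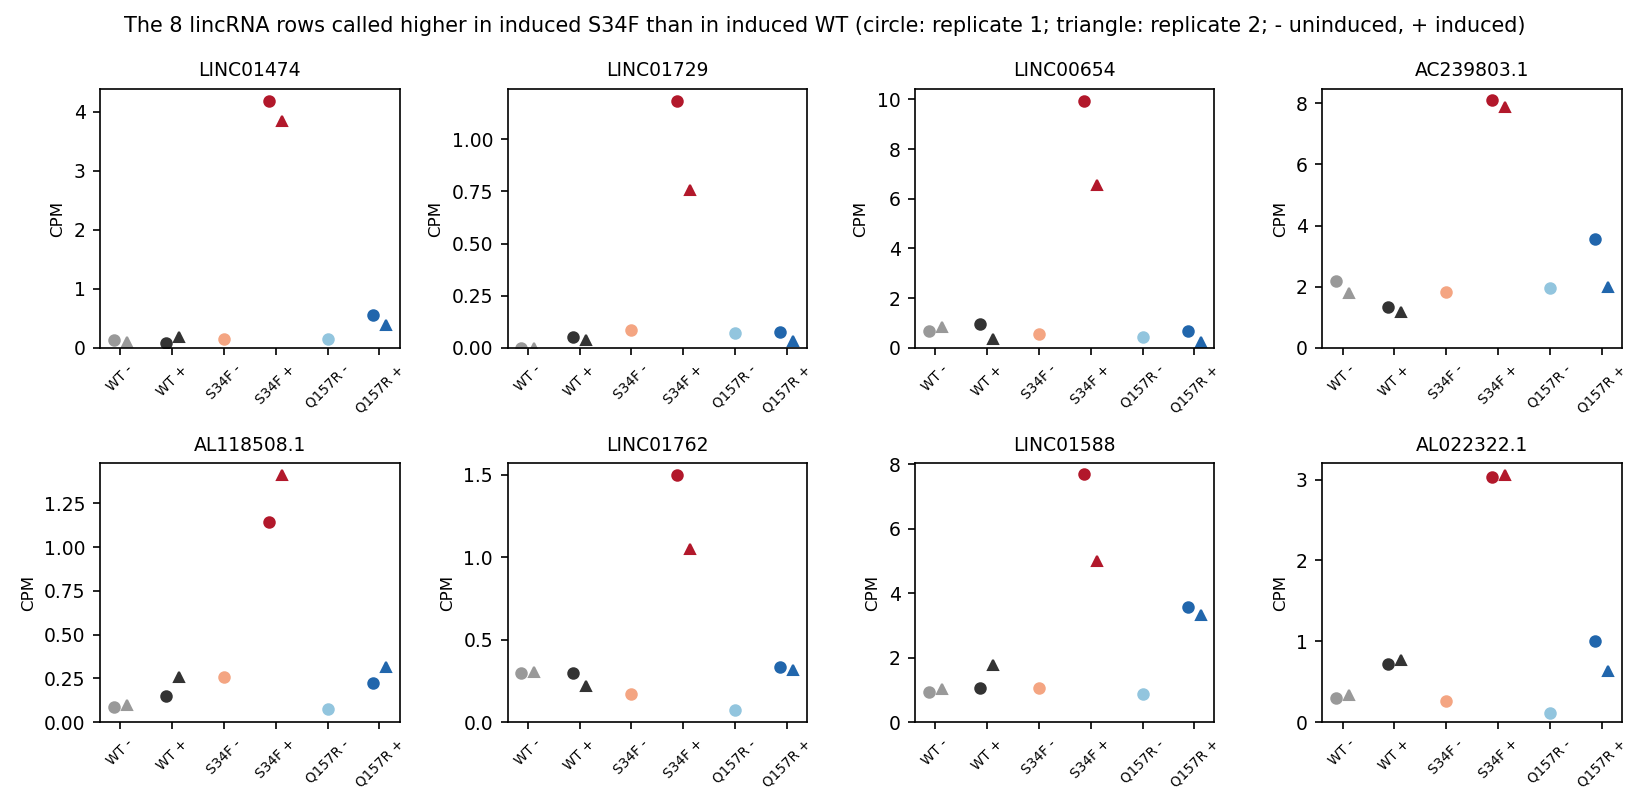
CPM (linear axis) in each of the 10 RNA-seq libraries for the 8 lincRNA rows called higher in induced S34F than in induced WT by the fit without a block; circles are replicate 1, triangles replicate 2, - uninduced and + induced. In every panel both induced S34F points lie above all other libraries, as for LINC01474 at 4.18 and 3.84 CPM.

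Rows that overlapped or lay close beyond a coding gene had somewhat higher medians in S34F. Against induced WT the median log2 fold change was 0.57 in the 74 overlapping rows tested, 0.55 in 193 under 10 kb, 0.44 in 235 at 10 to 50 kb, 0.35 in 331 at 50 to 200 kb and 0.32 in 554 at 200 kb or more. Of the 8 rows called without the block, 6 lay at 10 to 50 kb, 1 at 50 to 200 kb and 1 at 200 kb or more. With the block the rows called higher were 11 overlapping (14.9%), 31 under 10 kb (16.1%), 45 at 10 to 50 kb (19.1%), 44 at 50 to 200 kb (13.3%) and 67 at 200 kb or more (12.1%). A similar order was seen in antisense genes, with medians of 0.51, 0.52, 0.41, 0.31 and 0.30 from overlapping to 200 kb or more. It was also seen in processed pseudogenes, at 0.63, 0.57, 0.13, -0.07 and -0.14. Coding genes did not keep it beyond 10 kb, at 0.19, -0.12, -0.19, -0.18 and -0.16. Sense-intronic transcripts did not show it, at 0.72, 0.57, 0.34, 0.94 and 0.40. Each sense-intronic class but the overlapping one held only 8 to 15 rows. The quartiles of each lincRNA class spanned the medians of all 5, for example 0.03 to 0.93 under 10 kb and -0.16 to 0.78 at 200 kb or more.

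The median of the 502 rows under 50 kb, overlapping rows included, exceeded that of the 885 others by 0.18. The difference was 0.05 in replicate 1 and 0.14 in replicate 2 on log2(CPM + 0.5), and 0.052 in the fit without induced WT replicate 2. Measured from the 3′ end of the row to the nearest downstream gene on the same strand it was -0.0001. To the nearest opposite-strand gene beyond the row, whose 3′ end faces that of the row, it was -0.07. Across the 1303 rows with a distance, Spearman's coefficient between distance and log2 fold change was -0.08, a description over rows that share libraries. Before induction the medians of S34F against WT were 0.13 in overlapping rows, 0.07 under 10 kb, -0.08 at 10 to 50 kb, 0.08 at 50 to 200 kb and 0.00 at 200 kb or more, without such an order.

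**Figure D3:**
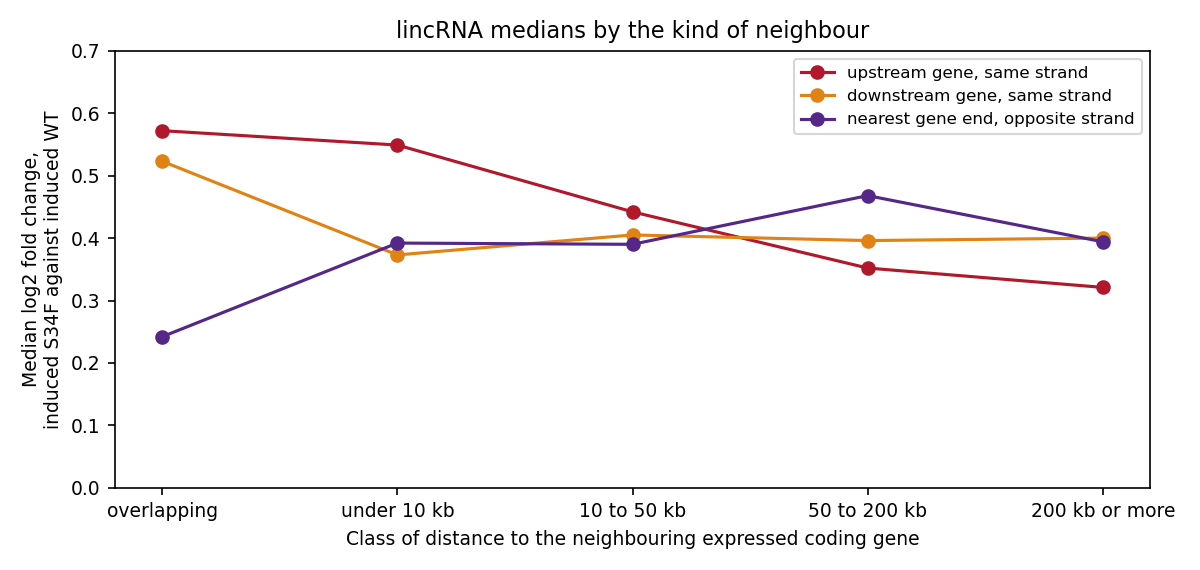
Median log2 fold change of lincRNA rows, induced S34F against induced WT (vertical axis), by class of distance to 3 kinds of neighbouring expressed coding gene. The line for the upstream gene on the same strand runs from 0.57 in overlapping rows to 0.32 at 200 kb or more without a rise between classes. The downstream line is at 0.52 in 18 overlapping rows and at 0.37 to 0.41 elsewhere. The opposite-strand line, for the gene beyond the row whose 3′ end faces that of the row, runs from 0.24 in overlapping rows to 0.47 at 50 to 200 kb.

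Splicing of the gene model went with the shift as well. The median was 0.54 in 451 single-exon rows and 0.33 in 936 spliced rows. Within the single-exon rows it was 0.55 under 50 kb and 0.54 at 50 kb or more, and within the spliced rows 0.45 and 0.27. The 268 tested rows that start within 2 kb of the start of an expressed coding gene on the opposite strand had a median of 0.33, against 0.41 in the other 1119. The 268 include rows that overlap a coding gene on the opposite strand, such as MIR22HG.

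Most upstream genes of the rows called higher were not called. Of the 198 rows called higher with the block, 197 had a tested upstream gene. Of these genes 18 were called higher, 26 lower and 153 neither, against a background of 9.56% higher and 12.9% lower over all genes. That background is not like for like, since upstream genes are coding genes of at least 1 CPM. Without the block 76 of 13602 coding genes were called higher and 208 lower, against 145 and 211 of all 21300 genes. For the 31 such rows under 10 kb the upstream gene was higher in 6 and lower in 2, and for the 67 at 200 kb or more it was higher in 3 and lower in 12. Across rows, Spearman's coefficient between the log2 fold change of a row and that of its upstream gene was 0.15 over 1377 pairs and 0.33 over the 267 pairs that overlap or lie under 10 kb. The ratio of row to upstream gene, tested with limma on log2((CPM + 0.5)/(CPM + 0.5)), rose for 37 lincRNA rows and fell for 2 in S34F against WT (background 1.48% higher and 0.65% lower of 21093 pairs), and with the block for 315 and 34 (background 15.3% and 7.79%). With a pseudocount of 0.1 it was called for 0 lincRNA rows and for 0 of all 21093 pairs.

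Named rows of the near classes show both patterns. AL591848.4, a single-exon row 4.16 kb beyond SCCPDH, was at 9.18 and 13.6 CPM in induced S34F and 2.99 and 3.72 CPM in induced WT, while SCCPDH was at 31.5 and 37.8 CPM against 43.6 and 53.6 CPM. The row did not pass without the block (log2 fold change 1.77 ± 0.39, edgeR adjusted p = 0.0622) and passed with it (0.00123), and its ratio to SCCPDH rose by a log2 of 2.09 ± 0.29 (limma adjusted p = 0.0327). AP002884.1, 0.794 kb beyond PTS, an enzyme of tetrahydrobiopterin synthesis, was at 1.73 and 1.71 CPM against 0.399 and 0.479 CPM (edgeR adjusted p = 0.0503, with the block 0.00514). Among overlapping rows, AC053513.1 was at 4.26 and 3.94 CPM against 1.42 and 1.51 CPM (edgeR adjusted p = 0.0543, with the block 0.00518) within C2CD5, which was at 98.4 and 95.7 CPM against 71.7 and 76.5 CPM. AC007878.1, which overlaps ZNF638, was at 14.7 and 13.4 CPM against 5.26 and 6.41 CPM, and ZNF638 was also higher, at 451 and 405 CPM against 286 and 215 CPM (edgeR adjusted p with the block 0.00811 for the row and 0.00228 for the gene).

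Farther rows also passed with the block. LINC01885, 2000 kb from the upstream gene, was at 7.8 and 11.8 CPM in induced S34F and 3.86 and 2.5 CPM in induced WT (edgeR adjusted p = 0.0538, with the block 0.00375). AF279873.3 was lower, at 5.24 and 6.44 CPM against 11.7 and 14.4 CPM (edgeR adjusted p = 0.0511, with the block 0.00257). Its upstream gene at 104 kb, MAK16, a ribosome assembly factor, fell from 97.8 and 82.9 CPM to 35.6 and 37.5 CPM (edgeR adjusted p = 0.0443).

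No lincRNA row was called between induced Q157R and induced WT. Of 21300 genes 0% were called by edgeR, and at an unadjusted p under 0.05 there were 41 lincRNA rows higher and 27 lower; with the block the count was also 0, as with DESeq2 (background 0.00776%). The median of the tested rows was 0.04. By distance the medians ran from -0.03 at 50 to 200 kb to 0.14 under 10 kb. The ratio to the upstream gene was called for 0 rows (background 0%; 673 of all pairs had an unadjusted p under 0.05).

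The rows with the lowest unadjusted p in that comparison were LINC01348 and LINC00222. LINC01348, 35.1 kb beyond the mitochondrial import receptor gene TOMM20 on chromosome 1, was at 3.05 and 4.38 CPM in induced Q157R, 0.623 and 0.81 CPM in induced WT and 0.355 and 0.164 CPM in induced S34F, with 0.235 to 0.372 CPM in uninduced cells. Both induced Q157R libraries stood above all others, with a log2 difference from WT of 2.38 ± 0.42 (edgeR adjusted p = 1, with the block 0.0911). LINC00222 was at 0.707 and 1.17 CPM in induced Q157R, 0.985 and 0.624 CPM in induced S34F and 0.149 and 0.184 CPM in induced WT, so that Q157R and S34F overlapped.

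S34F against Q157R, which share the S34F libraries with the comparison above, gave 4 rows higher and 4 lower (background 0.3% and 0.258%), and with the block 172 higher and 45 lower (background 8.49% and 11.5%). The median of the tested rows was 0.34. LINC00654 and LINC01474 were again among the 4 higher, with LINC02340 (8.36 and 6.21 CPM against 1.71 and 1.98 CPM, log2 fold change 1.98 ± 0.32) and AL160290.2 (4.57 and 3.94 CPM against 1 and 1.06 CPM, 2.04 ± 0.33). LINC02340 starts 21 bases from RPL21, a ribosomal protein gene on the other strand. The edgeR adjusted p-values of LINC02340 and AL160290.2 were 0.0498 and 0.0495, and both calls were lost when counts were scaled to all reads of a library (0.0541 and 0.0564). The ratio to the upstream gene was called higher for 35 rows and lower for 2 (limma; background 1.33% and 0.574%), and with the block for 267 and 60 (background 13.2% and 7.41%).

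The 4 rows lower in S34F than in Q157R were LINC01348, AF064858.2, AF064858.3 and AC092687.3. For LINC01348 the log2 difference was -3.84 ± 0.47, with an edgeR adjusted p of 0.0385. AF064858.2 and AF064858.3 lie near each other on the minus strand of chromosome 21, 146 and 163 kb from PSMG1, a proteasome assembly factor. AF064858.3 was at 0.0788 and 0.0986 CPM in induced S34F, 1.6 and 2.12 CPM in induced Q157R and 0.299 and 0.626 CPM in induced WT, a log2 difference of -4.32 ± 0.63 from Q157R (edgeR adjusted p = 0.0471). AF064858.2 had 51 reads in induced Q157R and 1 in induced S34F, a ratio of 51.6 with an exact 95% interval of 8.85 to 2076 that covers counting error only. AC092687.3, 13.3 kb beyond the protein disulfide isomerase gene PDIA6, was at 0.355 and 0.23 CPM against 1.71 and 2.19 CPM (-2.74 ± 0.43, edgeR adjusted p = 0.0495). All 4 rows had the same order of induced groups, Q157R above WT above S34F. For AF064858.2 the induced levels were 0.818 and 1.025 CPM in Q157R, 0.249 and 0.184 CPM in WT, and 0.0394 and 0 CPM in S34F.

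LincRNA rows as a group stood higher after induction in the S34F line. Against the single uninduced S34F library, 10 rows were called higher (0.721%) and 0 lower (background 0.704% and 1.26%), so the count of higher rows lay at the background, and with the block 187 higher and 20 lower (background 8.23% and 11%). All 10 remained called with the block. Without it the calls did not outlast leaving out induced S34F replicate 1 or replicate 2, in lincRNA rows or over all genes. The median log2 fold change of the tested rows was then 0.595 and 0.591. With all libraries the median of the tested rows was 0.60, against 0.06 over all genes. By distance it was 0.71 under 10 kb, 0.75 at 10 to 50 kb and 0.50 at 200 kb or more.

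The 10 rows included LINC01474, LINC01588, LINC02340 and AL022322.1 from the comparisons above. AC012213.2 rose from 4.61 CPM to 21.7 and 21.1 CPM (log2 fold change 2.21 ± 0.33, edgeR adjusted p = 0.034), and AC110048.2, a single-exon row 77.5 kb beyond the inhibitory SMAD gene SMAD6, from 4.84 CPM to 30.9 and 25.7 CPM (2.55 ± 0.50, adjusted p = 0.0484). AC012213.2 was also at 16.45 and 14.2 CPM in induced WT against 8.36 and 7.05 CPM uninduced, and at 8 and 11.55 CPM in induced Q157R against 7.25 CPM. AC110048.2 was also at 10.7 and 20 CPM in induced WT against 5.66 and 7.95 CPM uninduced, and at 11.1 and 17.5 CPM in induced Q157R against 5.46 CPM. AC092813.1, 19.2 kb beyond MSH4, a meiotic recombination gene, rose from 0.0858 CPM to 3.35 and 2.66 CPM, and MSH4 rose with it, from 3.92 CPM to 31.7 and 30.2 CPM (edgeR adjusted p = 0.0432 and 0.0359). The others were LINC02516, AC090409.2 and AC006238.1, with levels of 0.0858, 0.2 and 0.401 CPM before and 2.05 and 2.66, 2.01 and 1.58, and 3.11 and 2.1 CPM after induction. Of the 10 rows, all but LINC01474 also stood higher in both induced WT libraries than in both uninduced WT libraries. LINC02516, AC090409.2, AC006238.1 and the other rows named for induction in S34F were chosen after their values were seen.

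In the WT line 0 rows were called by the fit without the block (background 0%; 96 rows higher and 21 lower at an unadjusted p under 0.05; DESeq2 called 1 higher and 1 lower, background 0.0336% and 0.0129%), and with the block 4 were called higher and 1 lower (background 0.254% and 0.164%). The row called lower, AC125807.2, a single-exon row 0.764 kb beyond the transcription factor gene TEAD4, was at 25.3 and 25.9 CPM uninduced and 11.7 and 9.17 CPM induced in WT, at 19.8 CPM and 6.78 and 7.29 CPM in S34F, and at 27 CPM and 13.3 and 8.55 CPM in Q157R, so all 6 induced libraries lay below all 4 uninduced ones. In WT its log2 change was -1.31 ± 0.21 with the block (edgeR adjusted p = 0.0296) and -1.29 ± 0.26 without (0.693). LINC02019, beyond the kinase gene MAPKAPK3, was at 0.172 and 0.269 CPM uninduced and 1.45 and 1.36 CPM induced (adjusted p with the block 0.0442). MIR22HG, the host transcript of miR-22, was at 2.19 and 1.48 CPM and 6.85 and 3.46 CPM (0.0481), with 5.71 and 4.5 CPM in induced S34F and 5.73 and 3.67 CPM in induced Q157R. The remaining 2 were AC100835.2 and LINC01252.

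In the Q157R line 0 rows were called without the block (background 0%; 127 higher and 25 lower at an unadjusted p under 0.05; DESeq2 called 4 higher and 1 lower, background 0.132% and 0.0465%) and 2 higher and 0 lower with it (background 0.146% and 0.117%). They were LINC01348 and AL683813.1, which lies 0.207 kb beyond RBMX, an hnRNP gene, and was at 2.51 CPM uninduced and 11 and 15.2 CPM induced (edgeR adjusted p with the block 0.0375). The medians of the tested rows were 0.23 for induction in WT and 0.31 in Q157R, both above 0 as in S34F. Without replicates of the uninduced S34F and Q157R cells, the fit lends them the spread of the other groups.

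**Figure D4:**
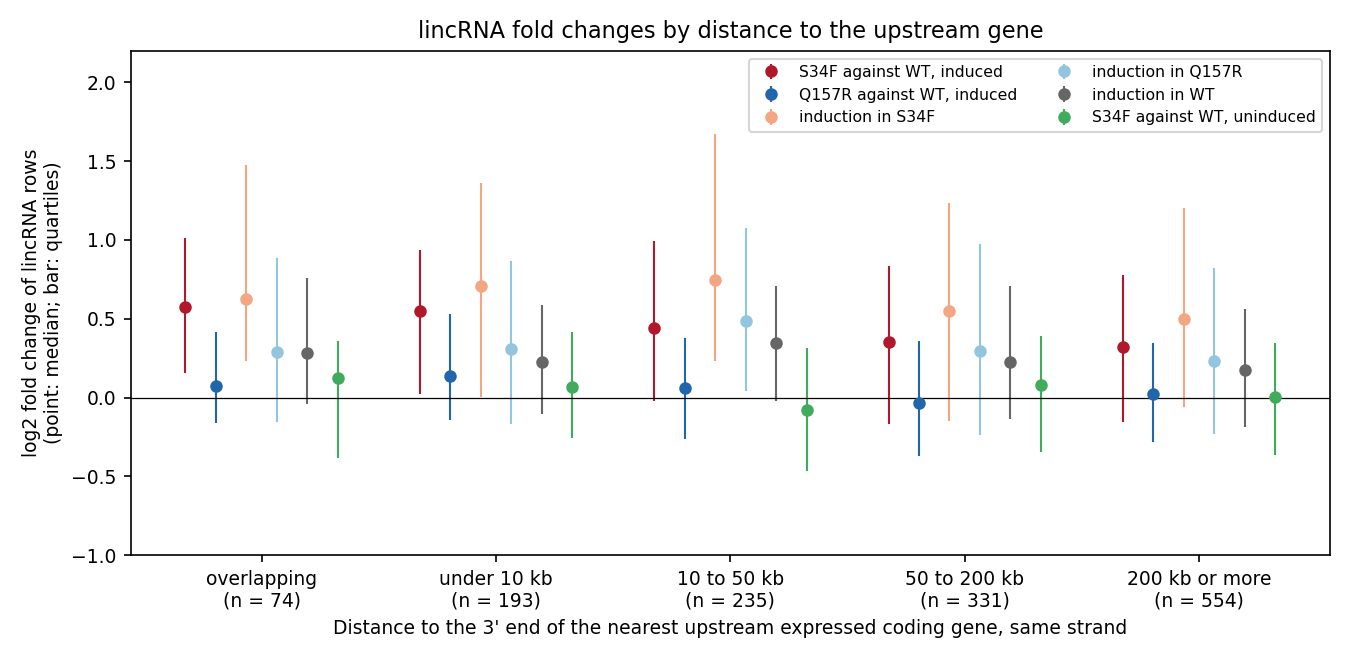
Log2 fold change of lincRNA rows (vertical axis; points are medians, bars quartiles) by class of distance to the upstream expressed coding gene, for 6 comparisons in separate colours. S34F against WT after induction runs from 0.57 to 0.32 and induction in S34F from 0.75 at 10 to 50 kb to 0.50 at 200 kb or more, and S34F against WT before induction lies between -0.08 and 0.13.

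Before induction no lincRNA row was called with the filter on low counts, in a design with 1 uninduced library for each mutant line. S34F against WT and Q157R against WT each had 0 rows called (background 0% in both; 12 higher and 12 lower, and 13 higher and 13 lower, at an unadjusted p under 0.05), and DESeq2 also called 0 (background 0%). With no filter on low counts edgeR called 1 row and 4 rows, among 63 and 119 of all genes. The medians were 0.01 and -0.04. The difference between the induction effects of S34F and WT was called for 0 rows without the block (background 0%; 74 higher and 21 lower at an unadjusted p under 0.05; DESeq2 called 2 higher and 0 lower, background 0.0336% and 0.0155%) and for 3 higher and 0 lower with it (background 0.15% and 0.554%). The difference between Q157R and WT was called for 0 rows either way (background 0%; 19 higher and 11 lower at an unadjusted p under 0.05; DESeq2 also 0, background 0%).

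**Figure D5:**
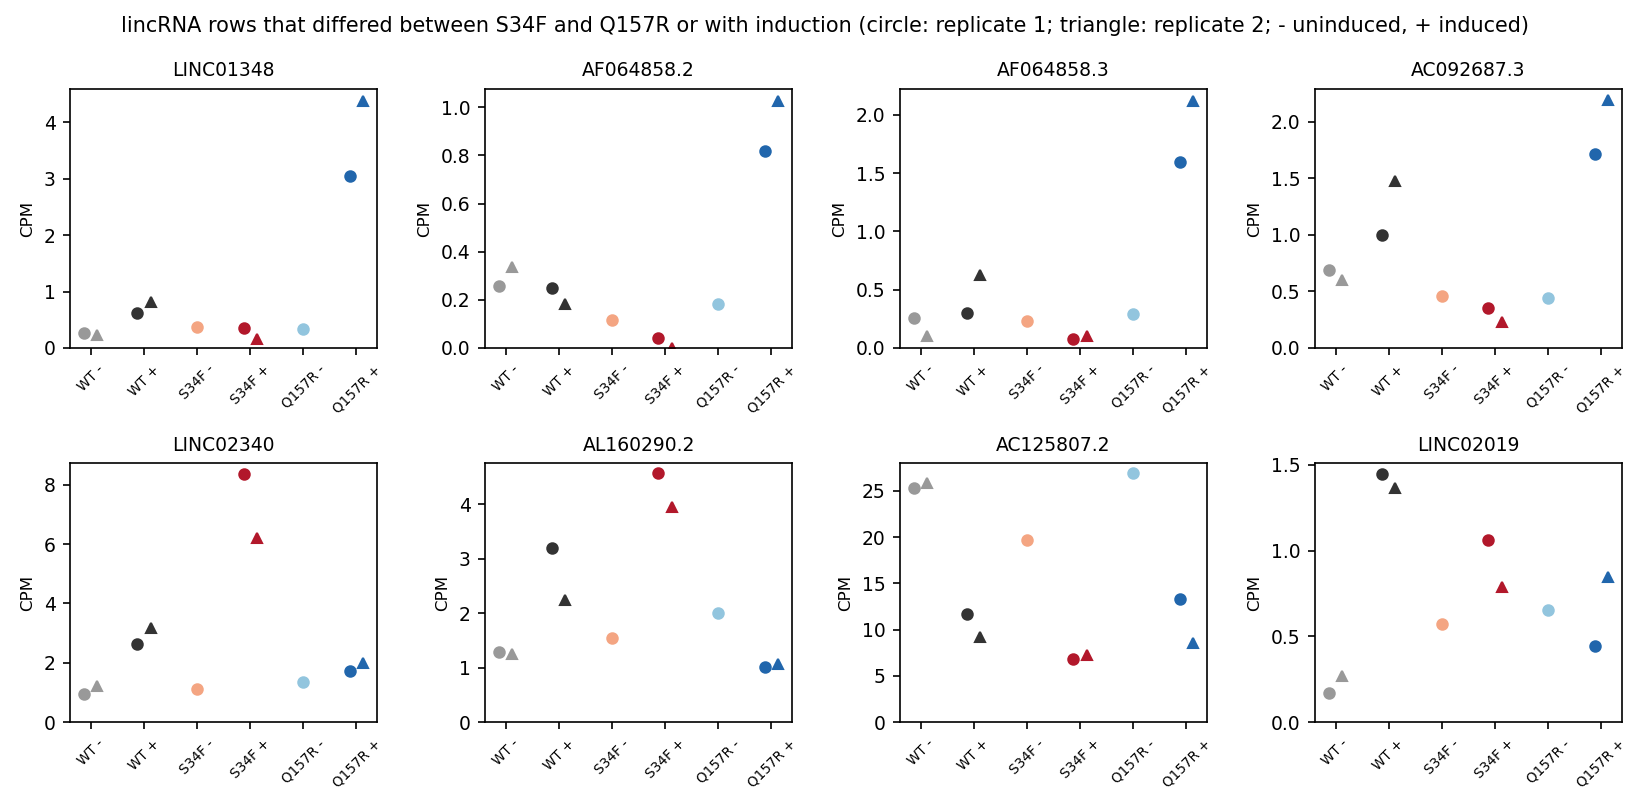
CPM (linear axis) in each of the 10 RNA-seq libraries for 8 lincRNA rows that differed between S34F and Q157R or had the lowest p for induction in WT; circles are replicate 1, triangles replicate 2, - uninduced and + induced. LINC01348 is highest in induced Q157R (3.05 and 4.38 CPM), and AC125807.2 is lower in all induced than in all uninduced libraries.

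The microRNA host transcripts, which carry microRNA precursors in their exons or introns, numbered 18 among the rows. None was called between S34F and WT without the block and 5 were called higher and 0 lower with it (background 0.681% and 0.991% without, 9.56% and 12.9% with the block), and their median was 0.49, against 0.40 in all lincRNA rows. The most abundant, MIR4435-2HG, was at 82.7 and 86.3 CPM in induced S34F and 95.9 and 80.3 CPM in induced WT, and overlapped. MIR29B2CHG, the host of miR-29b-2 and miR-29c, lies 1.88 kb beyond the stem cell marker gene CD34 and was at 25.5 and 43.8 CPM against 22.5 and 22.1 CPM (edgeR adjusted p = 0.259, with the block 0.0662). MIRLET7BHG was at 13.8 and 9.79 CPM against 12.7 and 5.71 CPM, and MIR222HG at 5.01 and 6.54 CPM against 11.4 and 6.48 CPM.

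Of 38 lincRNAs listed for their place in blood or cancer studies, 10 were among the rows. Between S34F and WT 0 of these were called without the block and 0 higher and 1 lower with it, near the same background for so few rows, and their median was -0.10. PVT1, the neighbour of MYC, was at 94 and 100 CPM in induced S34F, 111 and 97.1 CPM in induced WT and 101 and 86.3 CPM in induced Q157R, and at 124 to 169 CPM in the 4 uninduced libraries. MYC was at 162 and 250 CPM in induced S34F and 413 and 606.5 CPM in induced WT (edgeR adjusted p = 0.061, with the block 0.000435), so its libraries separated where those of PVT1 overlapped. HCG11 was at 42.8 and 55.9 CPM against 35.1 and 63.4 CPM, CYTOR at 37.4 and 34 CPM against 32.5 and 30 CPM, and CRNDE at 19.2 and 24.9 CPM against 17 and 30 CPM. For HCG11, replicate 2 was higher than replicate 1 in all 4 groups with both.

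Among the most abundant rows, AL713998.1 was at 334 and 380 CPM in induced S34F, 223 and 262 CPM in induced WT and 169 and 207 CPM in induced Q157R (S34F against WT edgeR adjusted p = 0.133, with the block 0.00909). EBLN3P was at 62.1 and 74.5 CPM against 41 and 49.7 CPM (0.112, with the block 0.0129). AC079466.1 ranged from 648 CPM to 1594 CPM, the latter in the uninduced S34F library. Its induced S34F values of 1264 and 1085 CPM lay above those of induced WT, 914 and 648 CPM. They overlapped induced Q157R, at 1001 and 1106 CPM, and lay within the range of the uninduced WT libraries, 686 and 1436 CPM. PCAT14, a transcript found in prostate cancer studies, was at 88.5 and 59.3 CPM in induced S34F, 125 and 62.2 CPM in induced WT, 127 and 49.6 CPM in induced Q157R and 109 and 76.2 CPM in uninduced WT, and these groups overlapped.

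The crosslinking libraries were not used to measure binding to these rows. The 158 rows that overlap a coding gene on the opposite strand held 49.8% of the lincRNA reads in the 7 eCLIP libraries and 10.6% in RNA-seq, and antisense genes held 27.7% of all eCLIP gene counts and 0.498% of RNA-seq counts. The strand setting of the counting is not given in the sources used here, and whether these reads came from the listed strand was not tested.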

How the data were processed

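RNA-seq read counts per gene were deposited by the authors as 1 table for 10 libraries. Per the submitters' processing notes, the series used HISAT2, STAR (2.5.3a and 2.7.0f), SAMtools, HTSeq, cutadapt, DESeq2 and edgeR, with the build GRCh38.p10; which tool made which table, and the strand setting of the counting, are not given in the sources used here. Counts without strand would mix a row with genes on the other strand. Of the 58347 rows, 58039 matched GENCODE 29, which gave gene types and positions.

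Members and lists were chosen with earlier results of these data known. Counts were fitted with edgeR 4.0.16 (quasi-likelihood, TMM scaling, filterByExpr with a minimum count of 10, 1 mean per group over all 10 libraries) in R 4.3.3, with Benjamini-Hochberg adjustment over 21300 genes at 0.05. Ratios to the upstream gene were tested with limma 3.58.1, and DESeq2 1.42.0 was an alternative. Other alternatives were other scalings and filters, the compared groups alone, leaving out each library and the replicate number as a block. Same-numbered libraries deviated together in all 6 pairs of groups with 2 libraries each (r = 0.211 to 0.652 over 21300 genes), so the numbers were taken to pair the libraries. Reads in no annotated gene stayed out of library sizes and were 19% to 33.7% of a library. Genes were named by rule: the 10 most abundant rows; in the 3 comparisons of induced groups and for induction in WT, the 6 largest rises and falls among called rows of at least 1 CPM without overlap, or the 2 lowest p where fewer than 2 were called; the 2 lowest adjusted p of each distance class between S34F and WT; and up to 4 of each list. All other rows named were chosen after their values were seen, because they were called. The scripts were tested on simulated data. The deposited eCLIP counts were used for the strand check alone, and the freCLIP counts and the 9 TL-seq samples were not analysed here. Some marker genes and transcript ends are not reported here.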

Additional observations from a re-analysis of the deposited data

Results flagged for a closer look

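In 3 lincRNA rows the effect of induction differed between the S34F and the WT line when the difference itself was tested with edgeR and the replicate number as a block. For LINC00654 the difference was 4.51 ± 0.70 on the log2 scale (SE; adjusted p = 0.0224): it went from 0.544 CPM to 9.93 and 6.54 CPM in S34F, and from 0.686 and 0.839 CPM to 0.972 and 0.368 CPM in WT. For AC239803.1, whose counts are uncertain because of near-identical copies, it was 2.96 ± 0.49 (adjusted p = 0.0311), with 1.83 CPM before and 8.12 and 7.89 CPM after induction in S34F, and 2.19 and 1.78 CPM before and 1.32 and 1.18 CPM after in WT. For AP003469.4, a single-exon row 8.25 kb beyond ZNF706, it was 1.95 ± 0.28 (adjusted p = 0.0211), with 10.6 CPM before and 34.8 and 48.6 CPM after in S34F, and 11.4 and 18.2 CPM before and 8.32 and 15.3 CPM after in WT. Without the block the adjusted p was 0.589 for each of the 3, and over the alternatives it reached 0.597. The uninduced S34F group is 1 library.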

How the results depend on the processing

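The counts of called lincRNA rows depended strongly on the test, as did those of all genes, which went from 356 between induced S34F and WT to 1567 with DESeq2, 2410 with no filter on low counts, 4779 with the replicate block and 0 with the compared groups alone. The 8 rows called between induced S34F and WT became 51 with DESeq2, 113 with no filter on low counts, 228 with the replicate block and 0 with the compared groups alone; the 8 between S34F and Q157R became 47, 114, 217 and 0, and the 10 for induction in S34F became 79, 154, 207 and 239. Over all genes, S34F against Q157R went from 119 to 1237, 2135, 4261 and 0. Induction in S34F went from 418 to 1787, 2992, 4099 and 4357. Leaving out 1 library removed the calls without the block in all 3 comparisons, in lincRNA rows and over all genes. Where 0 were called, no filter gave 2 (Q157R against WT), 7 (induction in WT), 39 (induction in Q157R), 1 and 4 (uninduced S34F and Q157R against WT), and, added after seeing the data, 10 and 2 (induction in S34F and in Q157R, each minus WT), DESeq2 gave 2, 5 and 2 (induction in WT, in Q157R, and S34F minus WT), the block gave 5, 2 and 3 for the same, and the compared groups alone gave 1 for induction in Q157R. Over all genes, in the same order, no filter gave 15, 130, 569, 63, 119, 306 and 44. DESeq2 gave 18, 69 and 19 over all genes, the block 89, 56 and 150, and the compared groups alone 8. The block changed the count in no other comparison of these rows that had 0. Of the ratio calls, the 39 between S34F and WT became 0 with a pseudocount of 0.1 and 349 with the block, and the 37 between S34F and Q157R became 15 and 327. Over all pairs the calls between S34F and WT also became 0 with a pseudocount of 0.1, and 3233 higher and 1644 lower with the block. The difference of 0.1811 between rows under and beyond 50 kb was -0.0001 measured to the downstream gene and -0.0714 to the facing gene on the opposite strand. With 1 library left out it was 0.052 (without induced WT replicate 2) to 0.2947 (without induced WT replicate 1). Among named rows the change on induction in WT had no fixed sign with 1 library left out, from -1.05 to 0.33 for LINC00654 (0.00 without uninduced replicate 2) and from -0.84 to 0.05 for AP003469.4; neither was called. Scaling to all reads of a library, which was chosen after seeing the data, gave 7 rows higher and 1 lower between S34F and WT and 2 higher and 4 lower between S34F and Q157R. Apart from the fits with fewer samples, the cause was not tested. The median row had 0.874 CPM; the part of depth in the counts of calls was not tested.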
